A study of Homo sapiens with 6 samples.

Results

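The genes described here encode the first enzymes and scaffolds that act inside a T cell when its antigen receptor is engaged: the Src family kinases LCK and FYN, the kinase ZAP70, the adaptors LAT, LCP2 (the protein SLP-76) and GRAP2 (the protein GADS), the exchange factor VAV1, the phospholipase PLCG1 and the phosphatase PTPRC (CD45). They were chosen by name, as a list of known pathway genes, and all 9 matched 1 row each of the 26485 genes in the count table. RNA with poly(A) tails was sequenced from H9, a human T lymphoma cell line of cutaneous origin per the labels, known as a clonal line. The labels give 3 control libraries, whose cells received the vehicle DMSO, and 3 libraries of cells that received 1 µM PA4, a compound known by its code name, both for 24 h. The submitters made the comparison to look for what underlies the death of cells given PA4.

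In resting T cells CD45 keeps LCK and FYN ready by removing an inhibitory phosphate from their tails. On engagement of the receptor, LCK phosphorylates the tails of the CD3 and zeta chains, ZAP70 docks there and phosphorylates LAT and SLP-76, and GADS joins these scaffolds. VAV1 then acts on the actin skeleton, and PLCG1 cleaves a membrane lipid into the messengers that release calcium and activate protein kinase C. Much of this control works through phosphate groups, which RNA sequencing does not measure.

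PA4 was not followed by a called change in any of the 9 genes, and their estimated fold changes were small. A gene was called when the adjusted p of edgeR's quasi-likelihood test, adjusted over all 12107 tested genes, was under 0.05. Of the 9 genes, 0 were called by edgeR, 0 by DESeq2 and 0 by limma-voom, while 0.231% of all tested genes were called by edgeR, 0.289% by DESeq2 and 0.223% by limma-voom. At an unadjusted p under 0.05, 1 gene was lower (LAT) and 0 were higher, where 5.29% of tested genes passed in either direction. The estimated fold changes ran from 0.921 for LAT to 1.04 for FYN. For 9 of 9 genes the 95% interval of the fold change stayed inside 1.25-fold up and down. The same held for 71.7% of all tested genes and for 95.6% of those 8564 whose mean level reached 10 CPM. CPM are counts per 1000000 counts of the library after TMM scaling. Positive log2 fold changes, always PA4 against control, were found in 4 members (47.6% of all tested genes) and negative ones in 5, with a median of -0.0086 beside -0.0040 over all tested genes.

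Library totals ran from 18282212 to 22875191 counts, and each member had between 870 and 9278 counts in every library, so all 9 passed the low-count filter. Whether the replicates are separate cultures is not in the labels, and the p-values speak only of the spread among these libraries, which may be technical. In bulk RNA, fewer expressing cells and less RNA per cell cannot be told apart. The 8 T cell markers fixed for the check, carried by the CD3 chains, CD5 and CCR4, summed to 760.5 to 791 CPM in control and 751 to 775 CPM with PA4, all 8 of them tested and 0 called by edgeR (0 at an unadjusted p under 0.05). Among these 8 markers CD7 and CD28 were scarce, with 38 to 50 and 79 to 130 counts per library. Outside the 8, other T cell genes were nearly absent, with at most 1 count of CD2, 1 to 5 of CD8A and 0 to 3 of CD8B. Of 6 markers each, 4 B cell, 5 natural killer cell and 5 myeloid markers had at most 10 counts in every library. CD22, NCR1, FCGR3A and CSF1R were at 0, and the sums were 18.5 to 21.9 CPM in control and 19.5 to 21.4 CPM with PA4 for B cell markers, 7.72 to 8.39 and 6.90 to 8.37 CPM for natural killer cell markers, and 0.630 to 0.880 and 0.493 to 1.18 CPM for myeloid markers. CD79A, a B cell receptor chain with 178 to 260 counts, and CD79B, with 151 to 227, stood out among the B cell markers. So did GNLY, with 126 to 169 counts, among the natural killer cell markers. Their part in the results was not tested. Control replicate 1 and control replicate 3 differed along the GC content of transcripts, with a Spearman rho of 0.637 across tested genes, which are not independent replicates.

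The stretches upstream of LCK and FYN are shown because the balance of these kinases is compared further on, and because they differ in base composition. They are the 250 bases before the transcript start that the RefSeq table of GRCh38.p14 takes for each gene, 5′ to 3′ on the gene's own strand. The LCK stretch lies at chr1:32251015-32251264 on the plus strand and the FYN stretch at chr6:111873453-111873702 on the minus strand. Capitals mark matches on either strand to CAGGAAG, a form of the core bound by ETS factors, and to TGTGGTT, the core bound by RUNX factors, which do not overlap each other here.
LCK: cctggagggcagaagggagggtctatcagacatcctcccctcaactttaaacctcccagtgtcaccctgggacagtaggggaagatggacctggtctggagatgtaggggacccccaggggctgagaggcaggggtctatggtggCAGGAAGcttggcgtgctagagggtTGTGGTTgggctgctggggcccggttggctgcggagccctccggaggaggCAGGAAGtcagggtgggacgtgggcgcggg
FYN: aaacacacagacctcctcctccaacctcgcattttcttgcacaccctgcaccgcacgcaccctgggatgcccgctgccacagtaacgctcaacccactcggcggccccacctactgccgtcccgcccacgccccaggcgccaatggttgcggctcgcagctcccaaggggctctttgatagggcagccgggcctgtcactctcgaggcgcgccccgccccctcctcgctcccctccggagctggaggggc
The LCK stretch held the ETS letters at 2 places and the RUNX letters at 1, with 64.4% GC and 7 CpG dinucleotides. The FYN stretch held neither motif, with 68.8% GC and 20 CpG, where the median over 27305 promoters was 11. All 9 members matched the table. The stretches of PTPRC and GRAP2, at chr1:198638790-198639039 and chr22:39926354-39926603, lie inside the full extent of those genes. Of the 9 stretches, 3 (LCK, ZAP70 and PTPRC) held the ETS letters and 1 (LCK) held the RUNX letters, against 10.5% and 3.63% of all promoters. The letters TCACNCCAC, a form of the sterol regulatory element, were in 0 of the 9 stretches and in 0.875% of all promoters. These matches describe letters and not bound sites.

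PTPRC, the phosphatase at the head of the pathway, lies on chromosome 1 of GRCh38 at 198638713 to 198757476. It had 397, 421 and 454 CPM in control replicates 1 to 3 and 409, 407 and 417 CPM in PA4 replicates 1 to 3. The PA4 values lay inside the range of the controls, whose lowest and highest libraries were replicates 1 and 3. The fold change was 0.969 with a 95% interval of 0.912 to 1.03 and an adjusted p of 0.993. The log2 estimate of -0.046 ± 0.041 (SE) became 0.0061 without control replicate 3. The splice forms of CD45 were not told apart by counts per gene.

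LCK, the kinase that starts the cascade, lies on chromosome 1 at 32251265 to 32286165. It had 117, 111 and 109 CPM in control and 117, 118 and 109 CPM with PA4. The groups overlapped, with 1 low library on the PA4 side (replicate 3) and 1 high library on the control side (replicate 1). The fold change was 1.02, with an interval of 0.955 to 1.09 and an adjusted p of 0.994. FYN, its relative on chromosome 6 at 111660332 to 111873452, had 115, 116 and 114 CPM in control and 123, 119.7 and 117 CPM with PA4. The 3 PA4 libraries lay above the 3 controls by a small margin. The FYN fold change was 1.04, with an interval of 0.981 to 1.10 and an adjusted p of 0.988. Its controls were closer together than counting error alone gives on average, with a coefficient of variation (SD over mean) of 0.555% beside a counting error of 2.13%. FYN and GRAP2 were the 2 of 9 genes whose groups did not overlap, 1 above and 1 below. Over all tested genes 11.2% did not overlap, 5.91% with PA4 above and 5.31% with PA4 below.

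ZAP70, which carries the signal from the phosphorylated receptor to the scaffolds, lies on chromosome 2 at 97713576 to 97756364. It had 84.1, 69.1 and 69.8 CPM in control and 71.0, 77.8 and 67.6 CPM with PA4. Control replicate 1 stood above every other library, and the rest of the controls lay within the PA4 range. The control coefficient of variation was 11.4%, the widest of the 9 genes, beside a counting error of 2.65%. The fold change was 0.971, with an interval of 0.876 to 1.08 and an adjusted p of 0.994. The log2 estimate of -0.042 ± 0.070 (SE) became 0.057 without control replicate 1 and 0.0025 without PA4 replicate 3.

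LAT, the membrane scaffold on chromosome 16 at 28984803 to 28990784, had the smallest unadjusted p of the 9 genes. It had 86.5, 81.7 and 76.5 CPM in control and 73.4, 79.5 and 72.4 CPM with PA4. Control replicate 3 lay below PA4 replicate 2, so the groups overlapped, although the other libraries were ordered with PA4 lower. Means ± SD over 3 libraries each were 81.6 ± 4.96 CPM in control and 75.1 ± 3.84 CPM with PA4, a fold change of 0.921 with an interval of 0.851 to 0.997. The unadjusted p was 0.0435 and the adjusted p from edgeR 0.943, so LAT was not called. Over 14 alternative settings its log2 fold change ran from -0.16 to -0.074 and its adjusted p from 0.174 to 1.00. It was -0.074 without control replicate 1 and -0.16 without control replicate 3. In GENCODE release 29, 47.7% of LAT's 4430 exon bases were shared with AC109460.3 on the same strand and 10.2% with AC109460.4 on the other. Neither of them is a row of the table. The LAT gene model that was counted has 1845 bases, and how much of it is shared is not known. Whether such reads were told apart is not known either.

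LCP2 and GRAP2 encode the cytosolic scaffold SLP-76 and the bridge that ties it to LAT. LCP2, on chromosome 5 at 170246233 to 170297777, had 119, 115 and 125 CPM in control and 120.3, 121 and 116 CPM with PA4. The PA4 libraries lay inside the control range, and the fold change was 0.994, with an interval of 0.934 to 1.06 and an adjusted p of 0.997. Its log2 estimate of -0.0086 became 0.026 without control replicate 3 and 0.0092 without PA4 replicate 3. GRAP2, on chromosome 22 at 39893820 to 39973721, had 52.0, 52.5 and 51.7 CPM in control and 48.5, 50.7 and 47.7 CPM with PA4. All 3 PA4 libraries lay below the controls. The GRAP2 fold change was 0.942, with an interval of 0.874 to 1.01, an unadjusted p of 0.106 and an adjusted p of 0.977.

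VAV1 and PLCG1 carry the signal from the scaffolds to the cytoskeleton and to calcium. VAV1, on chromosome 19 at 6772708 to 6857361, had 118, 107 and 104 CPM in control and 114, 113 and 108 CPM with PA4. The PA4 libraries lay inside the control range, and the fold change was 1.02, with an interval of 0.950 to 1.10 and an adjusted p of 0.994. Its log2 estimate of 0.029 became -0.0064 without control replicate 3. PLCG1, on chromosome 20 at 41137543 to 41177626, had 131, 126 and 125 CPM in control and 129.6, 127 and 126 CPM with PA4. It was the closest of the 9 to no difference, with a fold change of 1.00, an interval of 0.945 to 1.06 and an adjusted p of 0.997. Its log2 estimate of 0.0019 turned negative with library size alone, at -0.0042, and without control replicate 2, control replicate 3 or PA4 replicate 1, at -0.0068, -0.0093 and -0.0092.

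**Figure D1:**
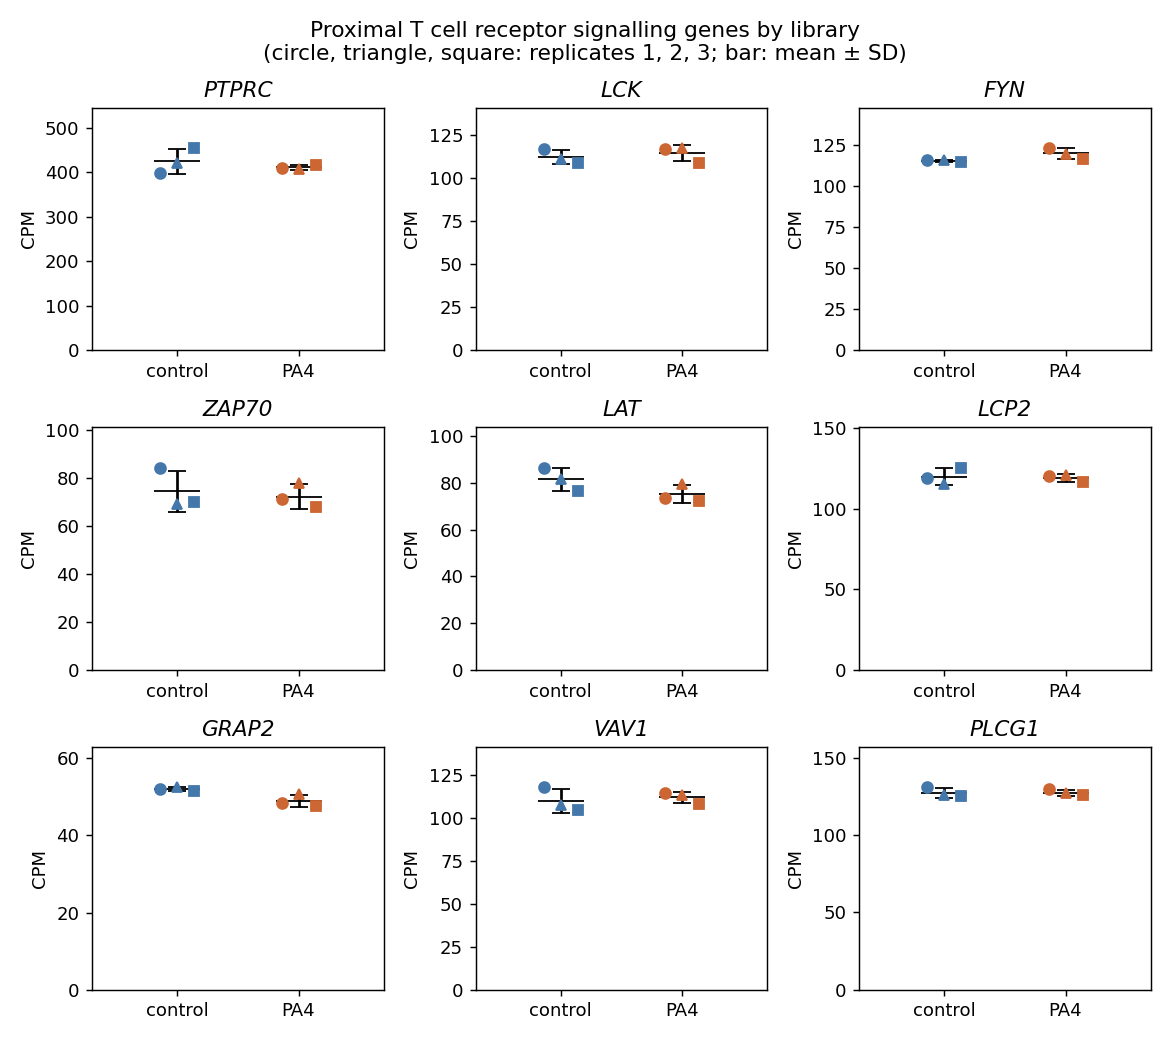
CPM (linear axis from 0) of the 9 genes in the 3 control and 3 PA4 libraries, with points for replicates and bars for mean ± SD. The groups overlap except in FYN, with PA4 higher, and GRAP2, with PA4 lower, and control replicate 1 of ZAP70 stands at 84.1 CPM above the other 5 libraries.

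Among the 9 genes, the difference between control replicates 1 and 3 tended to follow GC content. Control replicate 1 over control replicate 3 gave a log2 ratio of -0.19 for PTPRC, at 38.2% GC the lowest of the 9, and 0.27 for ZAP70, at 62.0% GC the highest. LAT and VAV1 were both at 0.18, with 54.5% and 56.8% GC. PLCG1 and LCK, between them at 55.3% and 56.6% GC, were lower, at 0.064 and 0.10, while FYN and GRAP2 were at 0.013 and 0.0091, with 48.4% and 52.1% GC. Over the 9 genes, which share these 2 libraries, the Spearman rho was 0.883. With offsets corrected for GC content, the log2 fold change of ZAP70 was -0.017 and that of LAT -0.11, and 0 of the 9 genes were called, where 0.859% of all tested genes were called under that setting.

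**Figure D2:**
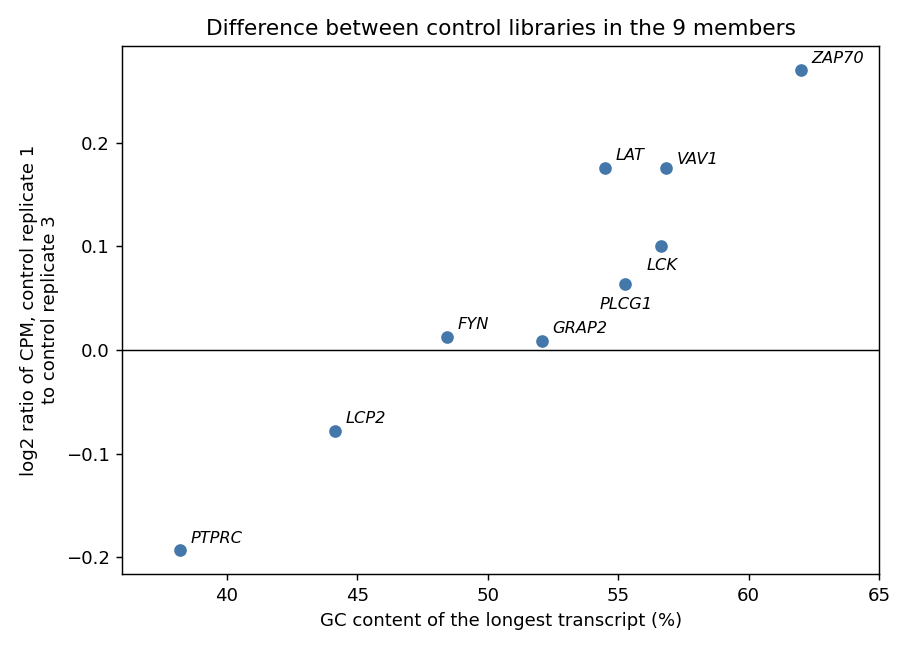
Each point is 1 of the 9 genes, with the GC content of its longest transcript in percent on the x axis and the log2 ratio of control replicates 1 and 3 (CPM) on the y axis. Genes from PTPRC, at 38.2% GC and -0.19, to ZAP70, at 62.0% GC and 0.27, mostly rise with GC content, and PLCG1, at 0.064, and LCK, at 0.10, lie below LAT, at 0.18, despite their higher GC content.

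Some members varied together across the 6 libraries and others did not. Of 36 pairs of members, 4 (11.1%) had a Pearson r of log2 CPM over 0.8 and 14 (38.9%) had a negative one, with a median of 0.13 over 6 libraries that differ in depth and base composition. Over all pairs of the 8564 genes of 10 CPM or more, the shares were 5.44% and 50.1%. The 6 pairs among LCK, ZAP70, PLCG1 and VAV1 had r of 0.725 to 0.927, and LAT and GRAP2 had 0.840, groups named after their values were seen. PLCG1 and VAV1 had the highest r, 0.927, and VAV1 and PTPRC the lowest, -0.908. LCK, ZAP70, PLCG1 and VAV1 were also the 4 members of highest GC content, from 55.3% to 62.0%, and PTPRC, at 38.2%, had the lowest. What part base composition has in these correlations was not tested. The mean of the members' centred log2 CPM was highest in control replicate 1, at 0.052, and lowest in PA4 replicate 3, at -0.051. The genes most like that mean were STRADA, ATXN7L2 and SSR2, with r of 0.995, 0.992 and 0.989, among 8555 genes compared, of which 189 had an r over 0.9.

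Levels can be compared between genes only per length, here as CPM per kilobase of the gene model in the table. The order below rests on these lengths, which differ from the exon bases in GENCODE release 29. LCK had 2235 bases in the model and 3339 in GENCODE, and LCP2 2422 and 7244. PTPRC, with 11338 and 9168, was the only member with fewer bases in GENCODE. The order under the GENCODE lengths was not tested. LCK had the highest level, 50.3 ± 1.82 CPM per kilobase in control and 51.2 ± 2.08 with PA4 (SD, n = 3 each), and LCP2 followed, at 49.5 ± 2.16 and 49.2 ± 1.01. LAT stood at 44.2 ± 2.69 and 40.7 ± 2.08, VAV1 at 37.4 ± 2.41 and 38.1 ± 1.12, and PTPRC at 37.4 ± 2.52 and 36.2 ± 0.457. FYN was at 29.7 ± 0.165 and 30.9 ± 0.823, and ZAP70 at 29.2 ± 3.34 and 28.4 ± 2.03. PLCG1, at 24.4 ± 0.607 and 24.5 ± 0.385, and GRAP2, at 12.8 ± 0.106 and 12.1 ± 0.394, were lowest. Over the 6 libraries the ranges of neighbours in this order were apart between LCP2 and LAT, PTPRC and FYN, ZAP70 and PLCG1, and PLCG1 and GRAP2. They overlapped between LCK and LCP2, LAT and VAV1, VAV1 and PTPRC, and FYN and ZAP70. The summed level of the 9 genes was 324, 309 and 311 CPM per kilobase in control and 313, 318 and 302 with PA4, and these ranges overlapped.

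The share of LCK in the summed level of LCK and FYN per kilobase gives the balance of the pair. It was 63.7%, 62.5% and 62.3% in control and 62.2%, 63.0% and 61.9% with PA4. The groups overlapped. The difference of the means, PA4 minus control, was -0.490 percentage points, with a two-sided exact permutation p of 0.5, where 3 against 3 libraries cannot give a p below 0.1. Without control replicate 1 the difference was -0.052. As a share of counts, without length, LCK was at 50.3%, 49.0% and 48.8% in control and 48.7%, 49.6% and 48.3% with PA4. The larger share of LCK per kilobase thus rests on the gene models, with 2235 bases for LCK and 3876 for FYN.

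Each member belongs to a protein family, and in some families the relatives known from other blood cells had no counts in H9. SYK, the relative of ZAP70 known from B cells, had 0 counts in all 6 libraries. Set against a floor of 3 counts per library, ZAP70 was at least 1014-fold higher per kilobase. BLNK and CLNK, relatives of LCP2, were also at 0 counts, which puts LCP2 at least 592-fold and 543-fold higher, and LYN was at 0 counts, which puts LCK at least 1387-fold higher. LAT2, the relative of LAT, had 3 to 9 counts per library. These bounds cover counting error only.

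In other families some relatives were expressed, either below the member, as with PLCG2 and VAV2, or above it, as with GRB2 and PTPRA. PLCG2, best known from B cells, was at 11.6 ± 0.081 CPM per kilobase in control beside 24.4 for PLCG1, and VAV2 at 3.58 ± 0.092 beside 37.4 for VAV1. GRB2, the widely expressed adaptor, was at 72.5 ± 1.50, above GRAP2 at 12.8. PTPRA, a receptor phosphatase that also acts on Src kinases, was at 46.8, with 45.6 to 48.6 over the 6 libraries, above PTPRC at 37.4. PTPRC had more counts, and its place below PTPRA rests on its gene model of 11338 bases. Its exon bases in GENCODE release 29 were 9168. Among Src kinases outside LCK and FYN, BLK, known from B cells, was at 8.30 ± 0.500 and YES1 at 5.17 ± 0.560, while SRC had 9 to 29 and FGR 3 to 8 counts per library. BLK, SRC, FGR and LAT2 were named after their values were seen. Of the 11 relatives tested, 0 were called by edgeR, with 0 at an unadjusted p under 0.05.

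**Figure D3:**
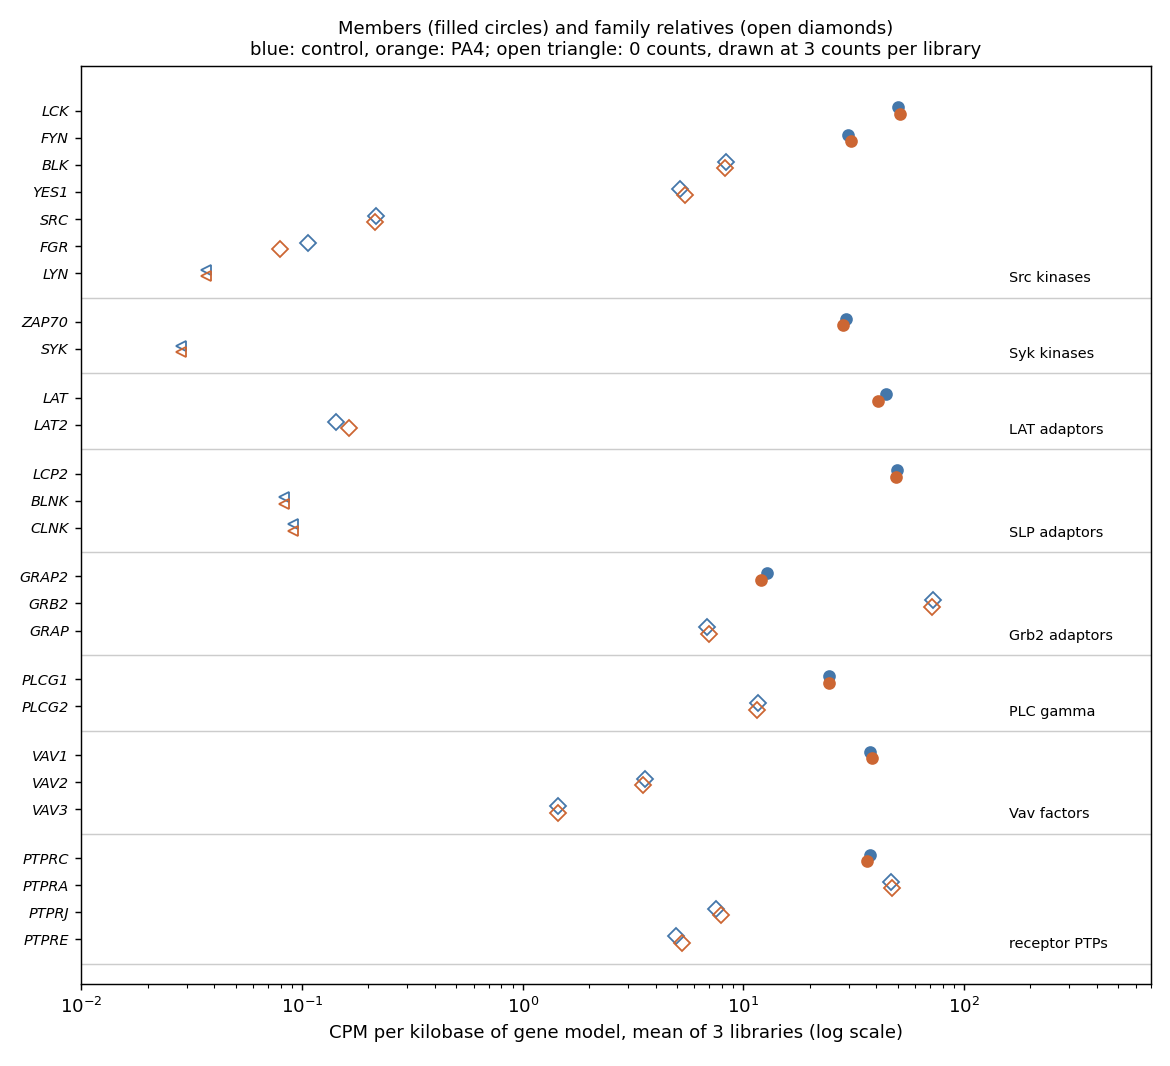
CPM per kilobase (log axis) of the members (filled circles) and family relatives (open diamonds), as means of 3 control (blue) and 3 PA4 (orange) libraries. Triangles stand at the floor of 3 counts per library for LYN, SYK, BLNK and CLNK, which had 0 counts, and the 9 members lie at 12.1 to 51.2.

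The rest of the pathway was covered by 5 lists with 86 genes, of which 72 passed the low-count filter. In edgeR 0 of the 72 were called, and 0 by DESeq2 or limma-voom. At an unadjusted p under 0.05, 1 was higher and 2 were lower, beside 2.69% of all tested genes higher and 2.60% lower. The median log2 fold change was -0.0048 over the 72 genes.

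Of the 14 receptor and coreceptor chains, 8 were tested and 0 called, with 0 at an unadjusted p under 0.05. CD3D, a chain of the receptor complex, had the highest level per length of the list and stood at 105 ± 5.86 CPM in control against 100.8 ± 0.934 CPM in PA4 libraries (SD, n = 3 each). The costimulatory receptor gene CD28 had 4.09, 5.20 and 5.09 CPM in control and 5.45, 5.70 and 5.75 with PA4. Its groups did not overlap, and the log2 fold change was 0.23 ± 0.13 (SE), with an adjusted p of 0.963. ICOS, a related receptor, was at 0.088 ± 0.057, with an adjusted p of 0.988. CTLA4 and PDCD1, receptors that restrain T cells, were at 0 counts, and CD4, which brings LCK to the receptor, at 6 to 12 counts, the last 3 named after their values were seen.

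Of 12 other tyrosine kinases, 8 were tested and 0 called, with 0 at an unadjusted p under 0.05. CSK, which adds the inhibitory phosphate that CD45 removes, had the highest level per length and stood at 314 ± 16.0 CPM in control against 309 ± 11.6 CPM in PA4 libraries (SD, n = 3 each), or -0.024 ± 0.040 log2 (SE). TXK, a Tec family kinase, was at -0.17 ± 0.11 log2 (SE), and YES1 at 0.066 ± 0.084. Of 21 brakes of the pathway, 20 were tested and 0 called, and at an unadjusted p under 0.05 there was 1 higher and 0 lower.

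That gene was PTPN7, a tyrosine phosphatase of blood cells. It had 312, 303 and 292 CPM in control and 330.5, 340.0 and 323 CPM with PA4, and each PA4 library lay above each control. Its log2 fold change was 0.13 ± 0.035 (SE), with an unadjusted p of 0.0017 and an adjusted p of 0.284. PTPN7 was called in 3 of 14 alternative settings, with adjusted p-values of 0.0253 without control replicate 1, 0.00201 with GC-corrected offsets and 0.00108 with these and the replicate block together, where 0.605%, 0.859% and 1.07% of all tested genes were called. Over the 14 settings its log2 fold change ran from 0.11 to 0.15 and its adjusted p from 0.00108 to 1.00. PTPRJ, a receptor phosphatase, was at 0.074 ± 0.051 log2 (SE).

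Of 19 other adaptors and partners of the cytoskeleton, 16 were tested and 0 called, and at an unadjusted p under 0.05 there were 2 lower and 0 higher. These were SKAP1, an adaptor of integrin activation, at -0.51 ± 0.21 log2 (SE), and SH2D2A, an adaptor that binds LCK, at -0.35 ± 0.16, with adjusted p-values of 0.901 and 0.943. Both were scarce, with 27 to 53 and 64 to 125 counts per library, and the groups overlapped in both. GRB2, highest per length in the list, was at -0.024 ± 0.034 log2 (SE). Of 20 downstream effectors all 20 were tested and 0 called, with 0 at an unadjusted p under 0.05. MALT1, a protease of the NF-kB branch, was at 0.091 ± 0.045 log2 (SE), and PRKCQ, the protein kinase C theta of T cells, at 0.11 ± 0.06.

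**Figure D4:**
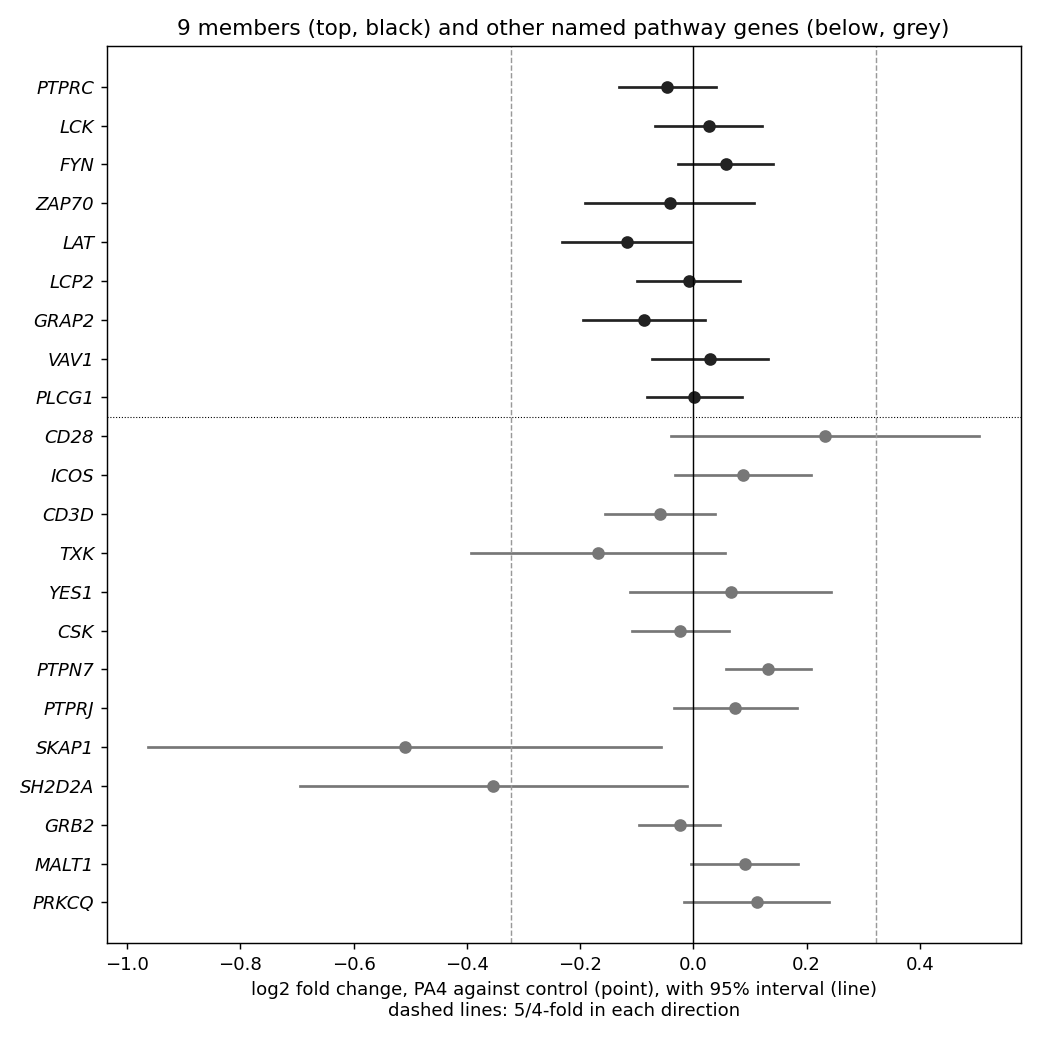
Log2 fold changes with PA4 against control (points) and 95% intervals (lines) from edgeR for the 9 members (black) and the other named pathway genes (grey), with dashed lines at 1.25-fold. All 9 member intervals lie inside the dashed lines, and those of SKAP1, SH2D2A, CD28 and TXK reach beyond them.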

How the data were processed

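Per the labels' protocols, RNA came from a Direct-zol isolation and libraries from a Kapa mRNA HyperPrep kit. The deposited table holds raw counts of reads per gene and 1 gene length per row. The submitters' processing notes name Trimmomatic 0.39, fastp 0.23.2, STAR 2.7.9a, featureCounts of Subread 1.6.4 and the build hg38 (GRCh38). The annotation and strand setting were not stated there.

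The tools were edgeR 4.0.16, DESeq2 1.42.0 and limma 3.58.1 (limma-voom) in R 4.3.3. The edgeR fit used filterByExpr (12107 genes left), TMM, glmQLFit and glmQLFTest, two-sided, on all 6 libraries with no covariate, and Benjamini-Hochberg adjustment over all tested genes. Alternatives were both other tools, other scaling, no filter, a replicate block, GC-corrected offsets and leaving out each library. The procedure was tested on simulated data. Intervals are 95% intervals from the F statistic. Members and lists were chosen with earlier results of these data known. Named were all members, in each pathway list the 2 genes of smallest unadjusted p, the highest per length and any called, and in each family the highest relative and those at 0 counts. The genes most like the members were the 3 of highest Pearson r with their mean. A few genes that this rule takes in are left out of the text and figures. FYB1 was matched by its older name FYB.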

Additional observations from a re-analysis of the deposited data

How the results depend on the processing

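Under 14 alternative settings, 0 of the 9 members were called in each, and 116 of 126 member estimates kept their sign, with adjusted p-values of 0.174 to 1.00. The 10 that changed sign were these. PLCG1 was at -0.0042 with library size alone, and leaving out control replicate 2, control replicate 3 or PA4 replicate 1 gave -0.0068, -0.0093 and -0.0092. ZAP70 was at 0.057 without control replicate 1 and 0.0025 without PA4 replicate 3. LCP2 was at 0.026 and 0.0092 when control replicate 3 or PA4 replicate 3 was left out. Leaving out control replicate 3 put VAV1 at -0.0064 and PTPRC at 0.0061. With each of the 6 libraries left out in turn, the log2 fold changes ran from -0.0093 to 0.022 for PLCG1, -0.098 to 0.057 for ZAP70, -0.036 to 0.026 for LCP2, -0.0064 to 0.082 for VAV1 and -0.091 to 0.0061 for PTPRC. The members' median ran from -0.036 to 0.022 in those fits. The cause was not tested.

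Over all genes, 28 were called by edgeR, against 62 with no low-count filter, 104 with GC-corrected offsets, 129 with these and the replicate block, and 17 to 74 in fits that leave out a library. The low end was 17 without control replicate 2 and 18 without PA4 replicate 1, the high end 74 without control replicate 1. The replicate block alone gave 59. Same-numbered libraries deviated with correlations of 0.021, -0.0091 and 0.12, the last the highest of all pairs. Control replicate 1 correlated best with PA4 replicate 2, at 0.11. The numbers were not taken to pair the libraries, because the labels do not say that a number marks a shared culture or day. Of the other pathway genes 0 were called by edgeR, 1 (PTPN7) with GC-corrected offsets, 1 with these and the replicate block, and 0 to 1 in fits that leave out a library. The share of LCK differed by -0.815 to -0.052 percentage points in such fits. In control, the spread between libraries was wider than counting error in 7 members, all but FYN and GRAP2. The share over all tested genes is not given here, so nothing particular to the members is read from that count.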
